A study of Mus musculus with 15 samples.

Results

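AP-1 and immediate early genes were described in mouse knee joint synovium through the 10 genes Fos, Fosb, Fosl1, Fosl2, Jun, Junb, Jund, Egr1, Atf3 and Ier3. They were taken as the probe sets whose single gene symbol in the platform annotation was one of these names. This gave 14 of the 45101 probe sets on the array, for 10 of 18193 named genes. Messenger RNA was measured on 15 microarrays in 5 groups of 3. Samples of 4 groups came from mice with collagen-induced arthritis (CIA), a model of inflammatory arthritis in which immunity is raised against type II collagen, and were graded by joint swelling as none, mild, moderate or severe. They received 100 µg of type II collagen in FCA on day 0, and the boost on day 21 was again 100 µg, given i. p. The remaining group was named naive, from healthy joints. The protocol label attached to the naive samples repeats that immunization and was taken as boilerplate of the series. Were it true of them, comparisons with naive would mean something else. Strain, age and the number of animals behind a sample were not stated in the sources used. P-values therefore cover the spread among these samples and no more, and that spread may be technical.

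AP-1 is a family of dimeric transcription factors. A FOS protein (from Fos, Fosb, Fosl1 or Fosl2) pairs with a JUN protein (from Jun, Junb or Jund) through a leucine zipper, while JUN proteins can also pair with each other or with ATF proteins such as the one from Atf3. Many of these genes are immediate early genes, which means that they are transcribed within minutes of a stimulus without new protein synthesis. Egr1 encodes a zinc finger factor of the same early wave, and Ier3 encodes a stress-induced regulator of cell survival. In the inflamed joint, AP-1 is best known for driving the genes of matrix-degrading proteases and cytokines in synovial fibroblasts and macrophages.

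Values are MAS5 signals in linear intensity units, with a trimmed mean of 150 on every array and medians of 36.3 to 47.6. Differences were fitted with limma on log2(signal + 16), 1 probe set per gene, over the 14314 genes that lay above their array's own 40th percentile (23.4 to 31.1 units) on at least 3 arrays. The threshold for a call was 0.05 on the Benjamini-Hochberg adjusted p, and n is 3 arrays per group throughout. The leading principal component (70.3% of the variance) ran from -68.75 to -48.22 over the naive and no-swelling arrays and from -7.42 to 63.12 over the swollen ones. Marker genes of several cell types moved with swelling. The summed signal of 10 fibroblast markers was 23822.7 to 24855.3 in naive joints and 49357.8 to 74767.6 in severe swelling, that of 10 macrophage markers 3468.5 to 3856.9 and 14004.7 to 19923.3, and that of 9 neutrophil markers 197.2 to 248.1 and 9025.6 to 12430.4. The summed signal of 14 skeletal muscle markers was 107002 to 123224.3 in naive, 73916.6 to 81994.2 in mildly swollen and 81501.2 to 115452.9 in severely swollen joints, so the samples held muscle RNA beside synovium. The actin 3′ to 5′ ratio, a sign of RNA integrity, was 0.978 ± 0.0764 (SD) in naive and 1.25 ± 0.0294 in severely swollen joints. It already lay apart without swelling, at 1.07 to 1.16 against 0.89 to 1.03 in naive joints. The Gapdh ratio of 0.804 to 0.886 without swelling and 0.825 to 0.959 in severe swelling overlapped the naive range of 0.826 to 0.888. The part of these in the values of single genes was not tested. In such bulk RNA, a change in the number of cells of a type and a change in RNA per cell cannot be told apart.

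Fos and Junb were the members called higher in CIA joints without swelling than in naive joints. Fosb and Fosl2 were picked because they hold an EGR motif, and were called from mild swelling on. Ier3 was also called from mild swelling on and holds no EGR motif in its window. So were Fosl1 and Egr1, which are not in the promoter table. A link between motif and call was not tested. The promoters of Fos, Junb, Fosb and Fosl2 are therefore shown. Each is the 250 bases before the start of the gene in the RefSeq promoter table (GRCm38.p6), read 5′ to 3′ on the gene's own strand. Capitals mark TATAAA, GCGGGGGCG (a motif of EGR factors) and TGACG, which is part of the CREB/ATF site TGACGTCA and not of the AP-1 site TGACTCA; the search for TGACG was added after the other motifs had been counted. The Fos promoter lies at chr12:85473640-85473889 (plus strand), Junb at chr8:84978749-84978998 (minus strand), Fosb at chr7:19310046-19310295 (minus strand) and Fosl2 at chr5:32136222-32136471 (plus strand).
Fos: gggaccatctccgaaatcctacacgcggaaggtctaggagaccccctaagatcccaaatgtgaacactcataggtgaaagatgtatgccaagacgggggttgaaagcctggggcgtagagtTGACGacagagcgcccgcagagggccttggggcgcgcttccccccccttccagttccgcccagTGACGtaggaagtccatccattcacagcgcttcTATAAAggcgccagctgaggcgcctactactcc
Junb: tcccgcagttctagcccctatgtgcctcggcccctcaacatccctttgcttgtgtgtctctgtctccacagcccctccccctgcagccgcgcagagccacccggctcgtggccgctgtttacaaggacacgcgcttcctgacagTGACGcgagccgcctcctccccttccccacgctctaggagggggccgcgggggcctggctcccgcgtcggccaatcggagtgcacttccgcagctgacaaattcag
Fosb: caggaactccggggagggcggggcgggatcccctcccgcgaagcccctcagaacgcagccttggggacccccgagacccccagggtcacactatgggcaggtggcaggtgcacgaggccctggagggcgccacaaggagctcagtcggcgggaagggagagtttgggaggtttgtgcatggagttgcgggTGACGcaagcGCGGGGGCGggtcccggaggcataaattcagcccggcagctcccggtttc
Fosl2: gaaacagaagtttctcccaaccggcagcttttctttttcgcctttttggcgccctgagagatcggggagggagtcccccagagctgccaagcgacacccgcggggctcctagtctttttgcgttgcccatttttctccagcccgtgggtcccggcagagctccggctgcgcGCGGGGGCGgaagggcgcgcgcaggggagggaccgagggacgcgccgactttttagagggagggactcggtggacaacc
In Fos, TGACG occurs at -129 to -125 and at -66 to -62, counted from the start, and TATAAA at -33 to -28. In Junb, TGACG occurs at -106 to -102. In Fosb, TGACG at -60 to -56 stands just upstream of GCGGGGGCG at -50 to -42, and in Fosl2 GCGGGGGCG stands at -79 to -71.

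The same search covered the 8 members in that table (all but Fosl1 and Egr1), on both strands. TGACG was present in 4 of 8, the fourth being Atf3 at -7 to -3, and in 17.8% of all 32851 promoters. GCGGGGGCG was present in 2 of 8 and in 2.57% of all promoters, and TATAAA in 1 of 8 and 12.4%. The full AP-1 site TGACTCA (4.46% of all promoters), the full CREB/ATF site TGACGTCA (1.55%), the other EGR motif GCGTGGGCG (0.536%) and the CArG box bound by SRF (1.47%) had no match in these windows. A match is a run of letters and says nothing of binding. Bases farther from the start were not searched, so a site there would be missed.

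**Figure D1:**
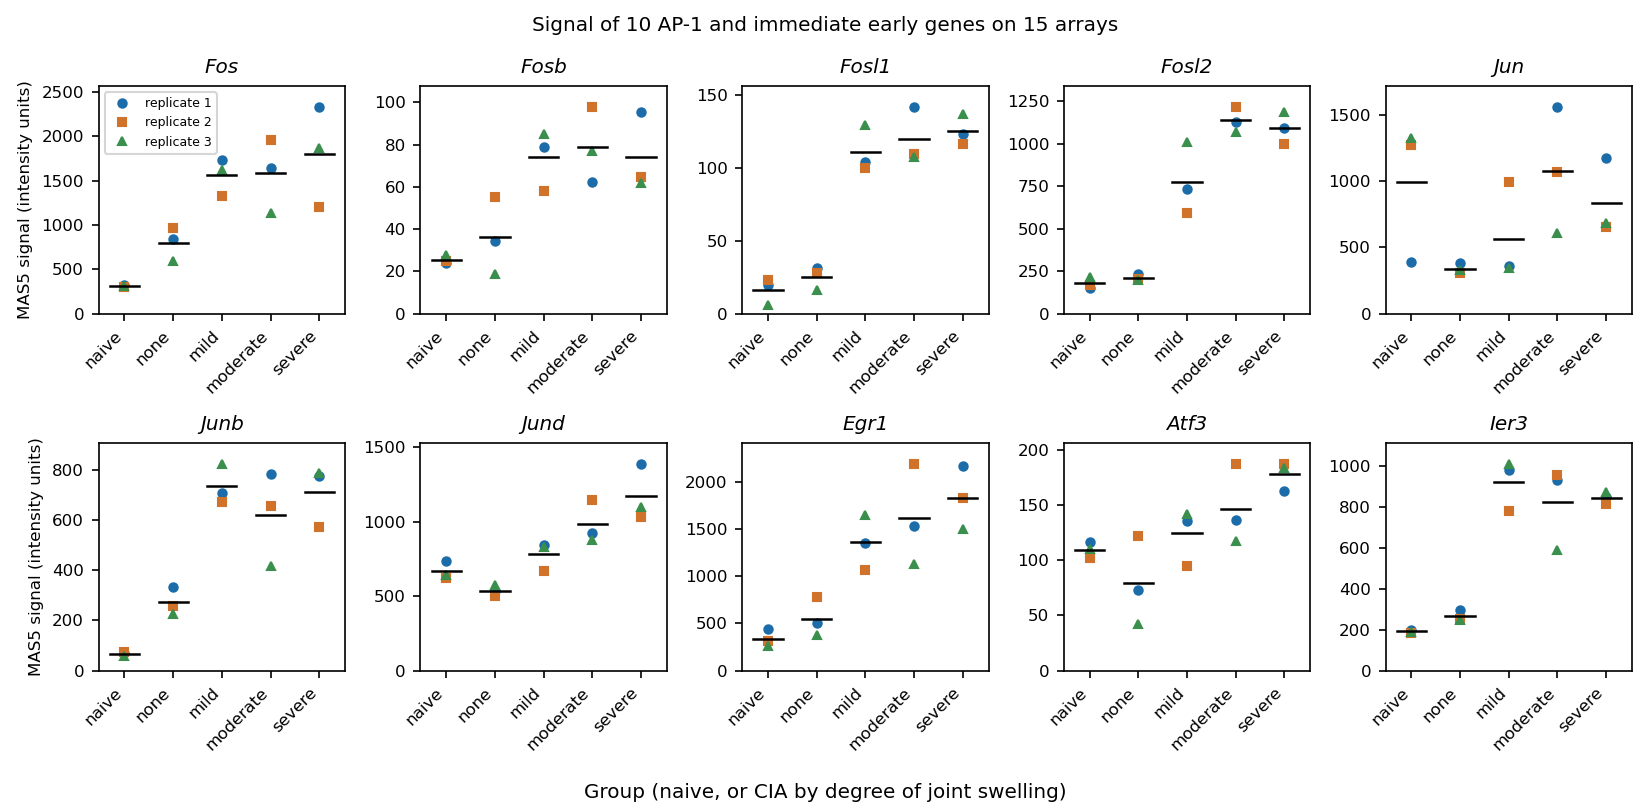
Signal of each of the 10 genes (vertical axis, MAS5 intensity units from 0, 1 probe set per gene) in the 5 groups (horizontal axis), with markers for the 3 replicates and a bar at the group mean. Fos and Junb are already higher without swelling, Fosl1, Fosl2, Egr1 and Ier3 step up at mild swelling, and Jun scatters widely within groups.

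In severe swelling against naive joints, 9 of the 10 genes rose and none fell, while 32.3% of all genes tested were called higher and 22.9% lower in that comparison. Jun did not pass by its brighter probe set. Its second one was called higher than naive in severe (0.45, adjusted p = 0.0317 over single probe sets) and moderate swelling (0.46, adjusted p = 0.0286). All 10 genes met the signal filter, Fosl1 only through the swollen arrays. The filter therefore fixes its place in the counts of swollen joints against naive or no-swelling joints. The same holds for its place in the slope and the F test. The median log2 fold change of the 10 genes was 2.11, beside 0.11 over all genes tested. Against naive joints, 8 genes rose in moderate swelling (30.9% of all genes called higher, 23.8% lower), 7 in mild swelling (23.1% and 17%) and 2 without swelling (1.52% and 1.76%), and again none fell. Arrays of the 2 groups did not overlap, with naive lower, for 9 genes in severe (36.1% of all genes), 9 in moderate (35.1%) and 7 in mild swelling (29.1%). These 4 comparisons share the naive arrays. Within the CIA samples, all 10 rose from no to severe swelling without overlap, where 33.1% of genes rose, 22% fell and 35.6% lay wholly higher. For Jun this holds for the brighter probe set, while the second one overlapped.

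Among the FOS family, Fos itself, the prototype early gene, had signals of 317.2, 297.4 and 306.8 on the naive arrays and of 845.2, 965.5 and 596.3 without swelling. Its signals were 1731.2, 1330.7 and 1619.3 in mild, 1649.4, 1958.4 and 1139.4 in moderate, and 2336.8, 1198.8 and 1870.4 in severe swelling. Every no-swelling array lay above the naive range and below every swollen array, whereas the 3 swollen groups overlapped. The naive arrays spread little (307.1 ± 9.9, SD) and the severe arrays widely (1802 ± 572). Fos rose without swelling by 1.31 ± 0.23 (SE) on the log2 scale (adjusted p = 0.00712), by a further 0.96 ± 0.23 from no to mild swelling (adjusted p = 0.00441), and stood 2.44 ± 0.23, or 5.43-fold, above naive in severe swelling (adjusted p = 7.23e-07). The no-swelling call was lost when arrays were scaled on their hybridization controls (1.17, adjusted p = 0.125).

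Fosl2 encodes FRA-2, a FOS protein that lacks the strong activation domain of FOS. Its brighter probe set gave 151.9, 167.7 and 215.1 in naive joints and 234.8, 200.7 and 197.8 without swelling, which overlapped (log2 fold change 0.24 ± 0.17, adjusted p = 0.499). It gave 733.3, 591.0 and 1007.3 in mild, 1130.4, 1218.0 and 1066.8 in moderate, and 1093.7, 996.5 and 1188.9 in severe swelling. Every swollen array lay above every array without swelling. Fosl2 was thus higher in mild than in no swelling, by 1.77 ± 0.17 (3.42-fold, adjusted p = 1.4e-05). Its moderate arrays all lay above its mild arrays, with a difference of 0.57 ± 0.17 that missed the threshold (adjusted p = 0.0533) and passed it in 5 of the 28 other fits, 1 of them without mild replicate 3 (0.77, adjusted p = 0.00507). Severe and moderate swelling did not differ beyond their spread (-0.06, 95% confidence interval -0.42 to 0.30).

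The dimmer Fosl2 probe set moved far less. It gave 78.1, 62.8 and 47.0 in naive, 55.9, 47.4 and 64 without swelling, 69.1, 109.8 and 86.9 in mild, 96.7, 82.9 and 81.8 in moderate, and 77.5, 88.3 and 85.7 in severe swelling. Naive and severe groups overlapped, and their difference of 0.36 ± 0.18 did not pass (adjusted p = 0.0978 over single probe sets). From no to mild swelling this probe set rose by 0.53 ± 0.18 (adjusted p = 0.0286), so both probe sets rose at that step, by unequal amounts. With a gene taken as the mean of its probe sets, Fosl2 was 1.44 higher in severe swelling than in naive joints, against 2.52 for the brighter probe set alone.

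Fosl1, the gene of FRA-1, had signals of 19.5, 23.2 and 5.9 in naive joints, 31.2, 27.7 and 16.2 without swelling, 104.1, 99.7 and 129.0 in mild, 141.7, 109.3 and 107.2 in moderate, and 123.3, 116.0 and 136.8 in severe swelling. The naive arrays and the no-swelling arrays overlapped, and so did the swollen groups, with a wide gap between. No naive array and 1 no-swelling array lay above the 40th percentile of its own array, so Fosl1 passed the signal filter through the swollen groups and had to differ. The log2 fold change of 2.18 ± 0.22 in severe swelling against naive therefore depends on the constant added, and was 3.06 with 1 and 1.24 with 64 in place of 16. Its other probe set lay between 1.7 and 45.3 and above that percentile on 2 of 15 arrays, which kept it out of the tests of single probe sets.

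Fosb, a close relative of Fos, was dim. Its signals were 24.0, 24.7 and 27.6 in naive, 34.3, 55.2 and 18.8 without swelling, 78.8, 58.0 and 85.2 in mild, 62.1, 98.0 and 77.1 in moderate, and 95.6, 64.8 and 62.0 in severe swelling. Swollen arrays all lay above the others, by a small margin over no-swelling replicate 2. Fosb rose by 1.1 ± 0.24 in severe swelling against naive (adjusted p = 0.00105) and by 0.84 ± 0.24 from no to mild swelling (adjusted p = 0.0121). The latter call was lost without no-swelling replicate 3 (0.58, adjusted p = 0.0733) or mild replicate 3 (0.75, adjusted p = 0.054), and the rise from no to severe swelling, 0.83 ± 0.24 (adjusted p = 0.00801), without no-swelling replicate 3 (0.57, adjusted p = 0.0529). The slope over the CIA groups also lost its call without that array (0.18, adjusted p = 0.0507).

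**Figure D2:**
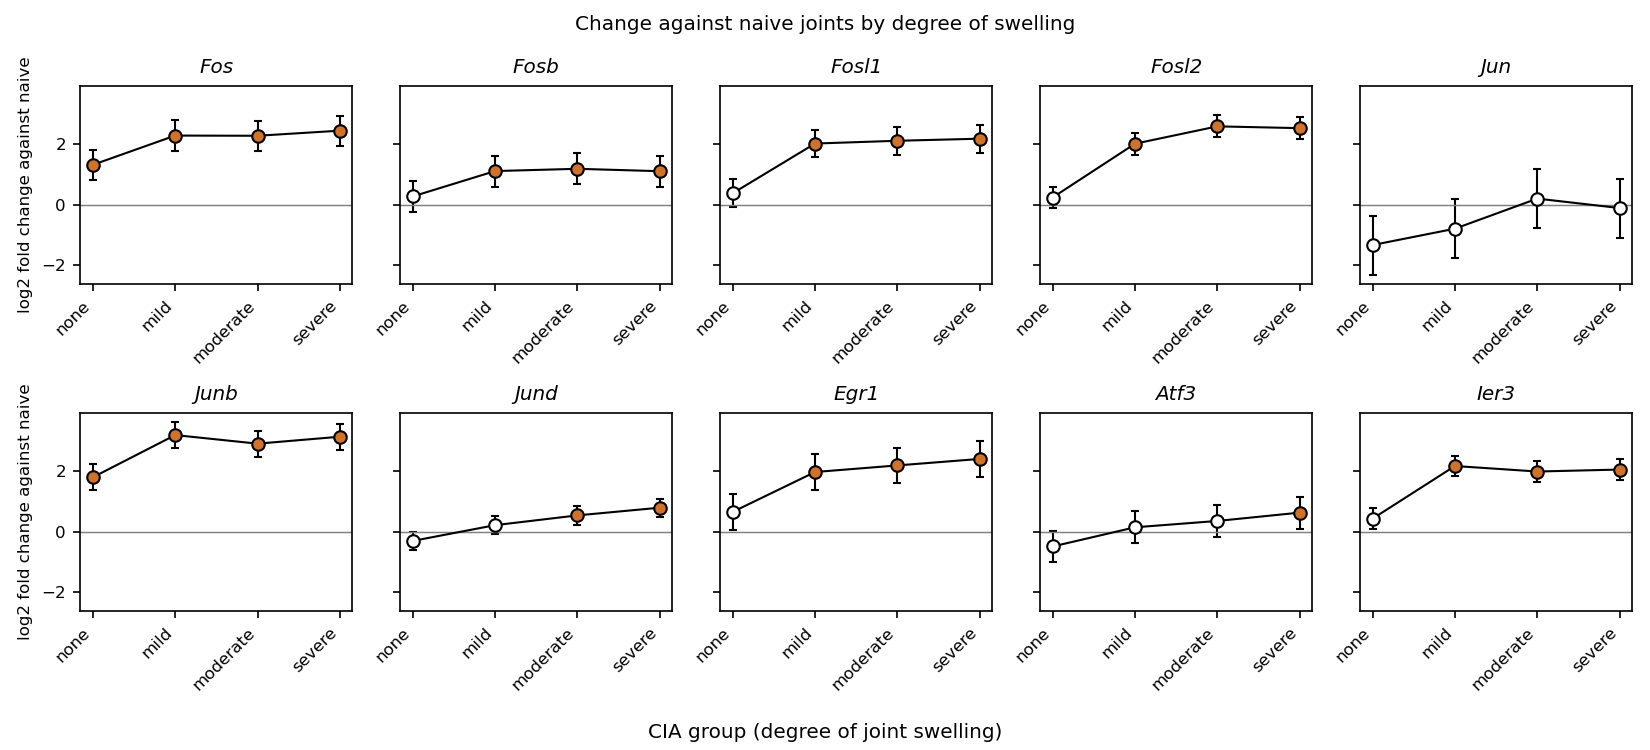
Log2 fold change of each gene against naive joints (vertical axis) in CIA joints by degree of swelling (horizontal axis), with 95% confidence intervals from limma. Filled points passed an adjusted p of 0.05. Junb starts at 1.79 without swelling and reaches 3.13 in severe swelling, and Jun has wide intervals on both sides of 0.

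Of the JUN family, Junb, whose protein is a weaker activator than JUN and holds it in check in some settings, showed the largest fold change among the 10 genes in severe swelling. Its signals were 69.3, 73.5 and 56.6 in naive and 331.3, 257.8 and 226.5 in CIA joints without swelling. They were 707.9, 671.2 and 823.4 in mild, 781.1, 653.3 and 418.0 in moderate, and 775.1, 570.7 and 788.3 in severe swelling. All no-swelling arrays lay well above naive and below every swollen array, and the swollen groups overlapped. Junb rose by 1.79 ± 0.20 without swelling (95% confidence interval 1.36 to 2.22, adjusted p = 0.000215) and by another 1.39 ± 0.20 at mild swelling (adjusted p = 0.000136). In severe swelling it stood 3.13 ± 0.20, or 8.77-fold, above naive (adjusted p = 5.35e-08). Its no-swelling value ranged from 1.65 to 1.91 when any 1 array was left out and stayed called.

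Jund, a JUN gene that many resting cells transcribe, moved by smaller amounts. Its signals were 738.7, 625.0 and 645.6 in naive, 535.2, 504.4 and 573.7 without swelling, 845.1, 668.5 and 830.2 in mild, 922.1, 1144.7 and 880.0 in moderate, and 1390.6, 1035.2 and 1102.0 in severe swelling. The no-swelling arrays were the lowest and all lay below naive, by 0.31 ± 0.14, which did not pass (adjusted p = 0.257). Jund rose by 0.52 ± 0.14 from no to mild swelling (adjusted p = 0.00887) and was 0.79 ± 0.14, or 1.73-fold, above naive in severe swelling (adjusted p = 0.000197). The rise to mild swelling was not called with array medians aligned (0.35, adjusted p = 0.0836) or over the mean of its probe sets (0.03, adjusted p = 0.914), and moderate swelling against naive, 0.54 ± 0.14 (adjusted p = 0.00448), was not called over that mean (0.34, adjusted p = 0.0951). Mild swelling against naive, 0.21 ± 0.14 (adjusted p = 0.251), was called with array quality weights (0.33, adjusted p = 0.00247). Its second probe set lay between 1.8 and 32.8 and was above the 40th percentile on 1 of 15 arrays.

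Jun, the gene of c-JUN, was the exception. The brighter of its probe sets gave 392.4, 1269.3 and 1324.2 in naive joints, so that naive replicate 1 lay far below the other two. It gave 381.6, 306.4 and 326.3 without swelling, 355.2, 993.9 and 344.0 in mild, 1560.3, 1064.1 and 608.2 in moderate, and 1172.3, 652.8 and 683.5 in severe swelling. The no-swelling arrays were low and close together, and in the mild group replicate 2 alone was high. Naive and severe groups overlapped, with a difference of -0.11 ± 0.46 (95% confidence interval -1.09 to 0.86, adjusted p = 0.853). Without swelling, every array lay below every naive array, but the difference of -1.33 ± 0.46 did not pass (adjusted p = 0.126). It passed without naive replicate 1 (-1.90, adjusted p = 0.043) and with scaling on hybridization controls (-1.46, adjusted p = 0.0125). Mild swelling was likewise called lower than naive without naive replicate 1 (-1.36, adjusted p = 0.0208), without mild replicate 2 (-1.28, adjusted p = 0.0286) and with array quality weights (-1.25, adjusted p = 0.00138), against -0.79 (adjusted p = 0.184) over all arrays. Array quality weights also called it higher in moderate than in mild swelling (1.46, adjusted p = 0.00367, against 0.99 and 0.2), and scaling on hybridization controls called it higher in mild than in no swelling (1.29, adjusted p = 0.0018, against 0.54 and 0.38).

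The second Jun probe set gave another picture on the same arrays. Its signals were 406.9, 454.6 and 492.9 in naive, 501.0, 382.9 and 386.8 without swelling, 427.4, 380.4 and 415.3 in mild, 598.4, 595.4 and 687.4 in moderate, and 644.4, 795.3 and 466.7 in severe swelling. Naive replicate 1 was not set apart here, no-swelling and naive arrays overlapped (-0.10 ± 0.17, adjusted p = 0.817 over single probe sets), and mild replicate 2 was the lowest of its group. This probe set rose from mild to moderate swelling by 0.60 ± 0.17 (adjusted p = 0.0459) and was 0.45 ± 0.17 above naive in severe swelling (adjusted p = 0.0317). Its severe arrays overlapped those of naive joints and those without swelling, through severe replicate 3 at 466.7. Both probe sets rose from no to severe swelling, by 1.22 ± 0.46 (adjusted p = 0.0333) and 0.55 ± 0.17 (adjusted p = 0.0116). For the brighter one that call was lost with array medians aligned (adjusted p = 0.0978) and without any 1 of the 3 no-swelling arrays or severe replicate 1 (adjusted p = 0.0509 to 0.138).

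**Figure D3:**
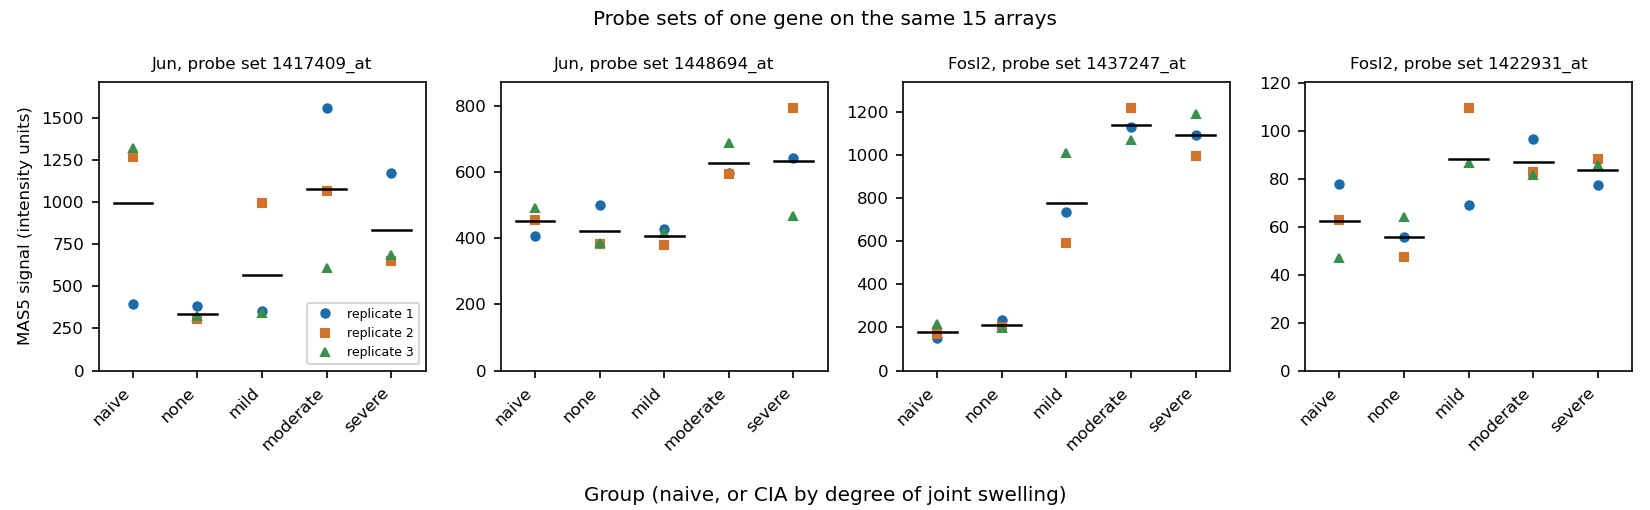
Signals (vertical axis, MAS5 intensity units from 0) of both tested probe sets of Jun and of Fosl2 in the 5 groups (horizontal axis), with markers for the 3 replicates and a bar at the group mean. The brighter Jun probe set splits naive and mild replicates that the other probe set holds together, and the dimmer Fosl2 probe set stays between 47.0 and 109.8.

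Among the remaining early genes, Egr1 had signals of 444.6, 310.2 and 259.5 in naive and 498.9, 776.4 and 376.4 without swelling, which overlapped. They were 1351.0, 1069.7 and 1650.2 in mild, 1529.6, 2190.2 and 1124.3 in moderate, and 2163.4, 1825.3 and 1496.4 in severe swelling. All swollen arrays were above all others. Egr1 rose from no to mild swelling by 1.32 ± 0.28 (adjusted p = 0.00164) and stood 2.40 ± 0.28, or 5.27-fold, above naive in severe swelling (adjusted p = 3.32e-06), while its value of 0.65 ± 0.28 without swelling did not pass (adjusted p = 0.215).

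Ier3 had signals of 199.8, 185.7 and 190.8 in naive, 296.7, 250.2 and 246.7 without swelling, 978.7, 778.1 and 1011.5 in mild, 930.2, 957.3 and 587.8 in moderate, and 847.4, 813.4 and 872.9 in severe swelling. Each no-swelling array exceeded each naive array, yet the difference of 0.43 ± 0.16 did not pass over all genes (adjusted p = 0.165). The step from no to mild swelling was 1.74 ± 0.16 (3.34-fold, adjusted p = 1.31e-05). Severe swelling stood 2.05 ± 0.16 above naive (adjusted p = 1.69e-07).

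Atf3, whose protein mostly represses and is induced by cell stress, had signals of 116.9, 102.5 and 110.0 in naive, 73.1, 122.2 and 42.1 without swelling, 136.1, 95 and 142.1 in mild, 136.5, 187.1 and 117.2 in moderate, and 163.1, 187.7 and 184.2 in severe swelling. Severe arrays were above naive and no-swelling arrays, and the lower grades overlapped with naive joints except moderate swelling, which lay just above. The rise of 0.63 ± 0.25 in severe swelling against naive (adjusted p = 0.0413) was lost in 11 of the 28 other fits, with adjusted p up to 0.138. Without naive replicates 1, 2 and 3 in turn it was 0.0643, 0.102 and 0.0826, without severe replicates 1, 2 and 3 it was 0.0592, 0.0916 and 0.092, and without moderate replicate 1 it was 0.0501. The rise from no to severe swelling, 1.12 ± 0.25 (adjusted p = 0.00116), was called in every fit. From no to mild swelling the difference of 0.63 ± 0.25 narrowly missed the threshold (adjusted p = 0.0535) and passed it in 6 of the 28 other fits. These were a filter at the 60th percentile (adjusted p = 0.0465), array quality weights (0.82, adjusted p = 0.000673), scaling on hybridization controls (1.26, adjusted p = 0.000827), and leaving out replicate 2 of the no-swelling (0.95, adjusted p = 0.00379), mild (0.79, adjusted p = 0.0261) or moderate group (0.63, adjusted p = 0.0489). Moderate swelling against naive, 0.35 ± 0.25 (adjusted p = 0.243), was called with scaling on hybridization controls (0.79, adjusted p = 0.0438).

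**Figure D4:**
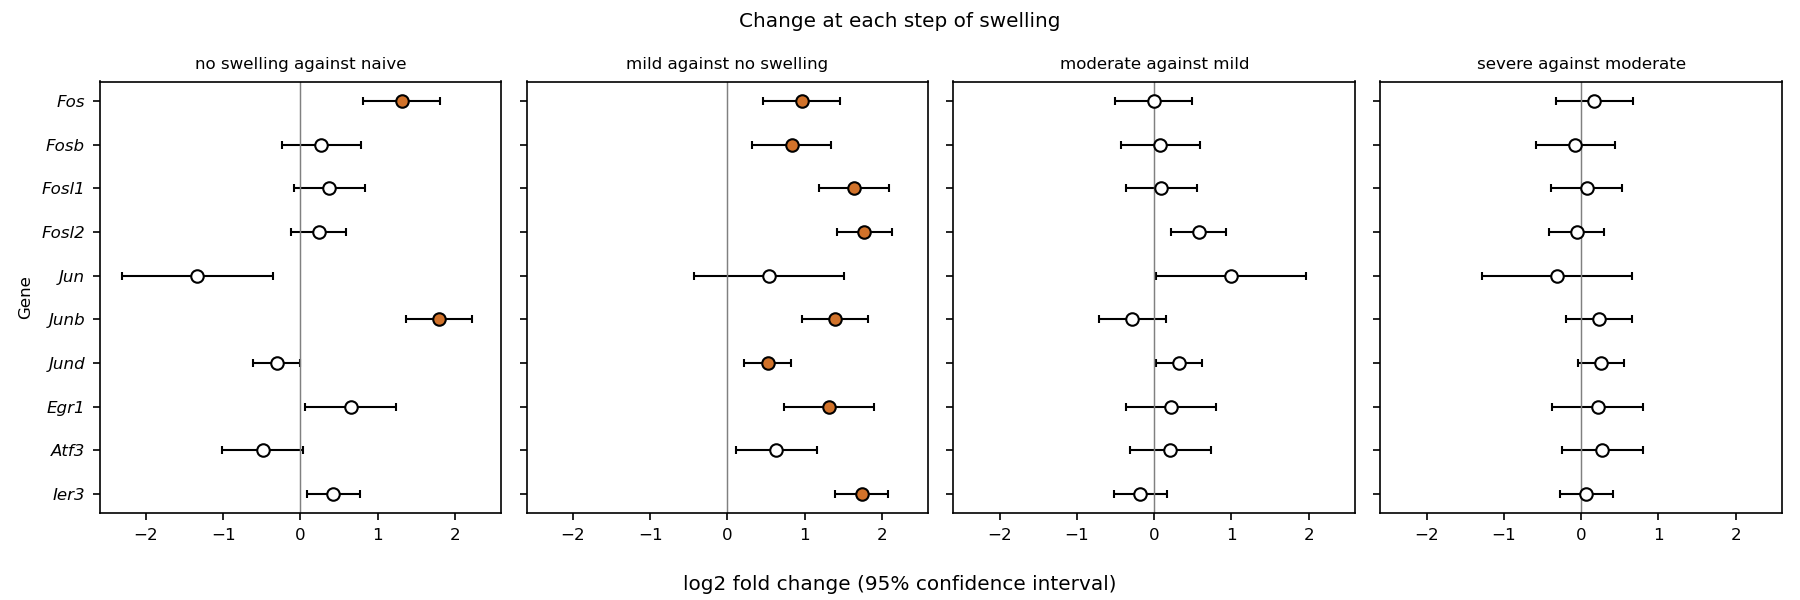
Log2 fold change (horizontal axis, with 95% confidence intervals from limma) of the 10 genes (vertical axis) at each step of swelling, 1 panel per step. Each gene is shown by its brightest probe set. Filled points passed an adjusted p of 0.05: Fos and Junb at the first step, 8 genes from no to mild swelling, and none at the later steps. The second Jun probe set, not shown, was called higher from mild to moderate swelling.

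Ordered by grade, 2 of the 10 genes were higher in CIA joints without swelling than in naive joints. From no to mild swelling 8 were higher. The grades are separate samples and no time course, so a rise is a difference between groups. Between naive and immunized joints without swelling, Fos and Junb rose, and the median of the 10 genes was 0.32, beside -0.01 over all genes. Groups did not overlap for Fos, Junb and Ier3 upward and for Jun and Jund downward, where 13% of all genes were wholly higher and 14.1% wholly lower. From no to mild swelling 8 of 10 rose, all but Jun and Atf3 (the latter at an adjusted p of 0.0535), where 23% of all genes were called higher and 15.6% lower, with a median of 1.14 beside 0.09. The same 8 lay wholly above the no-swelling arrays, as did 26.9% of all genes. Fosl1 is 1 of the 8, and the signal filter fixed its place there. Fos and Junb rose at both steps. Scaling on hybridization controls shifted the median of all genes to 0.71 at this step, turned the share of called genes that were higher from 59.6% to 99.4%, and called all 10 members higher with a median of 1.91. In severe swelling against naive the same scaling gave an all-gene median of 0.53 and a share of 87.1% in place of 58.5%, while 9 of 10 members stayed called. With array medians aligned the shares were 44% and 45.6%, and 7 members rose at the step to mild swelling and 8 in severe swelling against naive.

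From mild to moderate swelling none of the 10 passed by its brightest probe set, where 3.3% of all genes were called higher and 3.43% lower. The second Jun probe set was called higher at this step (0.60, adjusted p = 0.0459 over single probe sets). Its moderate arrays lay wholly above its mild ones. Of 25997 single probe sets, 647 were called higher there and 783 lower. By their brightest probe sets, Fosl2, Jun and Jund had an unadjusted p under 0.05 at this step, as did 23.8% of all genes. Of these 3, Fosl2 and Jund had moderate arrays wholly above the mild ones (14.3% of all genes). From moderate to severe swelling limma called 0 of 14314 genes, and 888 genes (6.2%) but none of the 10 had an unadjusted p under 0.05. No member had severe arrays wholly above moderate ones, as 6.91% of all genes did. The estimates of the 10 genes at this last step lay between -0.31 for Jun and 0.27 for Atf3. For Fos the 95% confidence interval ran from -0.33 to 0.67 and for Ier3 from -0.28 to 0.41, so differences of that size could not be seen with 3 arrays a group. The linear slope over the 4 CIA groups, scored 0 to 3, was called upward for all 10 genes (33.6% of all genes, with 22.7% downward), from 0.26 per grade for Fosb to 0.74 for Fosl2. The F test among the 5 groups called all 10 as well, with 60.7% of all genes called. The signal filter fixed the place of Fosl1 in both.

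Within the CIA groups the same arrays tended to be low for most of the 10 genes. Mild replicate 2 was the lowest of its group for 9 of 10, moderate replicate 3 for 9, no-swelling replicate 3 for 8 and severe replicate 2 for 7, while among naive arrays the lowest place was spread over all 3 (3, 4 and 3 genes). Over all genes tested, those 4 arrays were the lowest of their group for 41%, 30.4%, 36.7% and 42%. Among genes called higher in severe swelling against naive, the shares were 73.3%, 42.7%, 56.2% and 61.7%. The same 4 arrays had the lowest first principal component of their groups, at -7.42, 45.43, -68.75 and 41.71. The brighter Jun probe set did not follow this order in the mild group, where replicate 2 was its highest array. On the second Jun probe set, mild replicate 2 was the lowest of its group.

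Likeness over the 15 arrays was described by Pearson's r of log2(signal + 16), with no test, because arrays of a group share their condition and swollen and other arrays form separate sets. The genes most like Fos were Zfp36, which encodes an mRNA-destabilizing protein of the same early wave (r = 0.98), and Clec4e, a myeloid lectin receptor (0.98). For Junb they were Ccl7, a monocyte-attracting chemokine, and Saa3, an acute-phase gene (both 0.98), for Fosl1 Ncf4 and Cd44 (both 0.99), for Fosl2 Csgalnact1 and Pcsk5 (both 0.99), and for Ier3 Ptgs2 and Rrm2 (both 0.99). Egr1 was most like Abcg1 and Spi1 (both 0.98), Jund Kctd17 and 2610005L07Rik (both 0.98), Fosb Syce2 and Cd74 (both 0.96), Atf3 Uba7 (0.94) and Zfp87 (0.93), and Jun Retreg3 and Vapb (both 0.91). Among the members, r between the brighter Jun probe set and the other 9 genes lay between -0.01 (Junb) and 0.41 (Jund). No r was taken for the second Jun probe set, which differed from the brighter one within the naive and mild groups.

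Other immediate early genes were described as a list of 40 tested genes. In severe swelling against naive 28 rose and 5 fell, with a median of 1.17, where 32.3% of all genes rose and 22.9% fell. Nfkbiz, a nuclear regulator of NF-κB target genes, rose by 3.09 ± 0.20, Myc by 2.57 ± 0.21, and the antiproliferative gene Btg1 by 2.40 ± 0.18. Not every early gene moved with Fos. Nr4a1, an orphan nuclear receptor that is induced by many of the same stimuli, fell by 1.74 ± 0.22 (adjusted p = 7.68e-06), and Nr4a3, Klf10, Gadd45g and Sgk1 were also called lower (-1.01, -0.41, -0.61 and -0.40). With scaling on hybridization controls 30 of the 40 rose and 1 fell. Dusp1, a phosphatase that turns off the kinases upstream of AP-1, had a value of -0.12 ± 0.26 that did not pass (adjusted p = 0.725). Without swelling, 3 of the 40 rose against naive (Myc by 1.13, Nfkbiz by 0.81 and Sgk1 by 0.61) and 2 fell (Klf2, -0.92, and Rhob, -0.80). Over all genes 1.52% rose and 1.76% fell there. Of the 40, 3 rose and 0 fell there with quantile normalization. The counts were 4 and 1 with array medians aligned, and 1 and 1 with scaling on hybridization controls. From no to mild swelling 23 rose and 1, Sgk1, fell (-0.81), where 23% of all genes rose and 15.6% fell.

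**Figure D5:**
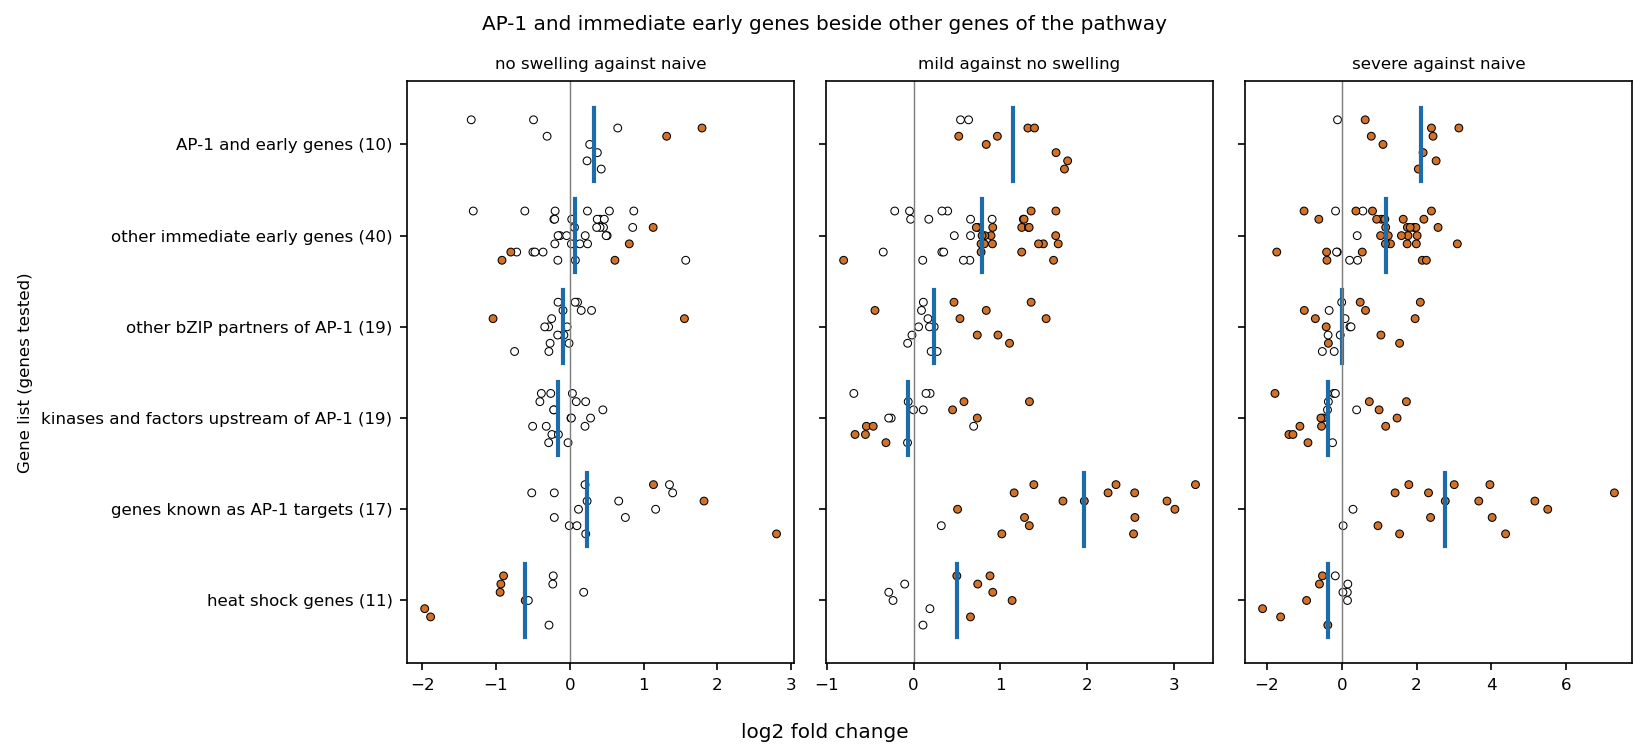
Log2 fold changes (horizontal axis) of single genes in each list (vertical axis, with the number tested) for 3 comparisons. Orange points passed an adjusted p of 0.05 and the blue bar is the list's median: the 10 genes have medians of 0.32, 1.14 and 2.11, and known AP-1 targets 0.24, 1.97 and 2.77.

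Of 19 other bZIP genes, whose proteins can pair or compete with AP-1, 6 rose and 4 fell in severe swelling against naive, shares close to those of all genes (32.3% and 22.9%). The median of this list was 0.00, which became 0.39 under hybridization control scaling and -0.22 with array medians aligned. Jdp2, a repressor that pairs with JUN, rose by 2.10 ± 0.27, Cebpd, an inflammation-induced C/EBP factor, by 1.96 ± 0.17, and Creb5 by 1.05 ± 0.16. Cebpd already stood 1.55 ± 0.17 above naive without swelling (adjusted p = 0.000136), with mean signals of 288.4 and 878.5. Atf5 was the 1 gene of this list that fell there (-1.04 ± 0.20, adjusted p = 0.011).

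Of 19 kinases and factors that act upstream of AP-1, 5 rose and 8 fell in severe swelling against naive (all genes 32.3% and 22.9%), with a median of -0.36 that became 0.14, with 6 rising and 2 falling, under scaling on hybridization controls. The p38 kinase gene Mapk14 fell by 1.31 ± 0.13 and Map2k3, the gene of a kinase that activates p38, by 1.41 ± 0.16, while the ternary complex factor gene Elk3 rose by 1.73 ± 0.18. None of the 19 passed between naive and no-swelling joints by limma, and 3 had an unadjusted p under 0.05, as did 18.9% of all genes. At the step to mild swelling 4 rose and 5 fell (all genes 23% and 15.6%), with a median of -0.06 that was 0.68, with 8 rising and none falling, under the same scaling.

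Genes known as targets of AP-1 were a list of 17 tested. In severe swelling against naive 15 of 17 rose and none fell (all genes 32.3% and 22.9%), with a median of 2.77. The stromelysin gene Mmp3 rose by 5.51 ± 0.37 (mean signal 86.47 and 4678), Ptgs2, the inducible cyclooxygenase, by 3.96 ± 0.29, and Cd44, a hyaluronan receptor, by 2.77 ± 0.19. Plau (0.04 ± 0.35) and Hbegf (0.30 ± 0.19) did not pass. Without swelling 3 of 17 rose against naive: Il6 by 2.80 ± 0.34 (adjusted p = 0.000357), Timp1 by 1.82 ± 0.42 (adjusted p = 0.031) and Ptgs2 by 1.14 ± 0.29 (adjusted p = 0.0457). Over all genes 1.52% rose there. Under each of the 3 other scalings 2 of 17 rose in that comparison. Il6 and Ptgs2 had mean naive signals of 5.53 and 3.80, below the 40th percentile of any array, so no naive array can have lifted them past the signal filter. They met it through the CIA arrays, which fixes their place in the counts against naive, and the size of their fold changes depends on the constant added. From no to mild swelling 16 of 17 rose, all but Plau, where 23% of all genes rose. Which targets met the signal filter through the swollen arrays alone was not checked. For any that did, the filter fixed its place in this count and in the count of severe swelling against naive.

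Heat shock genes, which respond to stress of cells and of handled tissue, were set beside the early genes. Of 11, none rose and 6 fell in severe swelling against naive (all genes 32.3% and 22.9%). In CIA joints without swelling against naive, where Fos and Junb rose, none rose and 6 fell (all genes 1.52% and 1.76%). That count of 6 was 4 with quantile normalization, 5 with array medians aligned and 2 with scaling on hybridization controls. There Hspa1a stood at a mean signal of 207.7 in naive and 39.77 without swelling (-1.97 ± 0.24, adjusted p = 0.000361), and Hspa1b at 481.4 and 115.5 (-1.89 ± 0.18, adjusted p = 3.99e-05). Hsph1 fell in severe swelling by 0.94 ± 0.16. From no to mild swelling 6 of 11 rose and none fell (all genes 23% and 15.6%), with a median of 0.50. The median in severe swelling was -0.37, and 0.14 with 2 of 11 falling under scaling on hybridization controls. The part of tissue handling in the values of Fos and Junb was not tested.

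Beside the higher values of Fos and Junb, marker genes of cell types were also compared between no-swelling and naive joints. Over all genes, 1.52% rose and 1.76% fell there. Of 9 neutrophil markers 4 rose, also with quantile normalization or array medians aligned, and 2 with scaling on hybridization controls. The summed signal of the 9 was 520.7 to 3390.5, above the naive range of 197.2 to 248.1. Those naive sums are low for 9 genes, as are those of 8 T and B cell markers (184.3 to 244.4). Which of these markers met the signal filter through the CIA arrays alone was not checked. For any that did, the filter fixed its place in the counts against naive. None of 10 macrophage markers passed by limma (3 had an unadjusted p under 0.05, as did 18.9% of all genes). With array medians aligned 1 of the 10 was called higher. The summed signal of the macrophage markers, 2857.2 to 6968, overlapped the naive range. Fibroblast markers had 1 of 10 called higher (4 had an unadjusted p under 0.05), and 0 with quantile normalization or scaling on hybridization controls. Endothelial markers had 1 of 8 called lower, and 0 with scaling on hybridization controls. Of these 8, 6 had an unadjusted p under 0.05, and their median was -0.53. The summed signal of the endothelial markers was 1814.3 to 1900.2 in naive joints and 1216.2 to 1490.5 without swelling. The summed signal of 4 erythroid markers was 2287.6 to 2501.1 in naive joints and 1185.8 to 1688.2 without swelling, although no single one of them passed there by limma (2 had an unadjusted p under 0.05). In severe swelling against naive, 32.3% of all genes rose and 22.9% fell. There all 10 macrophage and all 10 fibroblast markers and 6 of 9 neutrophil markers rose, as did 6 of 7 chondrocyte, 4 of 8 endothelial and 4 of 8 T and B cell markers. The summed signal of the chondrocyte markers was 783.5 to 876.8 in naive and 4098.8 to 6473.7 in severely swollen joints. Of the others, 5 of 14 muscle, 4 of 6 adipocyte, 2 of 4 keratinocyte and 2 of 4 erythroid markers fell. The part of each cell type in the values of the 10 genes was not tested.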

How the data were processed

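Biotin-labelled total RNA was hybridized to Affymetrix arrays, as the labels' protocols state. The deposited values are linear intensity signals from MAS5 (submitters' processing notes), whose version was not stated in the sources used. No scaling was added in the main fit. Of 45101 probe sets, 34958 had 1 gene symbol, 932 several and 9211 none in the annotation used, which can be old; 34754 matched a RefSeq gene table and 0 symbols changed. Each of 18193 named genes was represented by its brightest probe set, leaving out 13 control probe sets. No array duplicated another.

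limma 3.58.1 in R 4.3.3 was fitted to log2(signal + 16) as group means over 15 arrays, with 10 residual and 5.52 prior degrees of freedom and an intensity trend, two-sided. Adding 16 understates changes of dim genes. An exact permutation test of 3 against 3 arrays cannot give p below 0.1. Single probe sets were fitted the same way over 25997 probe sets. The comparisons were 8 pairs of groups, the slope and the F test. Named genes were every member, the genes with the lowest p in severe swelling from each other list (up to 3), and the 2 most correlated genes per member; any other gene was named after its values were known. The members and lists were chosen with earlier results of these data known, so their counts are not independent evidence. On data simulated for severe swelling against naive over 14314 genes, 14%, 58%, 100% and 100% of genes shifted by 0.5, 1, 2 and 3 were recovered, with 8.11% false calls. For mild against no swelling the shares were 18%, 50%, 98% and 100%, with 4.32% false calls. Each simulation shifted 50 genes by each amount, far fewer than the real comparisons called. The shares therefore do not give the recovery in the real comparisons. The 28 alternative fits covered pseudocounts, filters, normalization, probe set rule, trend, replicate block, array weights and each array left out; scaling on 9 hybridization control probe sets was added after seeing the data. Protein sequences were not used here.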

Additional observations from a re-analysis of the deposited data

How the results depend on the processing

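Over the 28 other fits, 2475 of 2520 values of the 10 genes kept their direction where called and their side of the threshold, 25 lost a call, 20 gained one and 0 called values turned direction. Those changes stand beside the results of Fos, Fosb, Fosl2, Jun, Jund and Atf3, with 1 exception: Jun lost its slope call without severe replicate 1 (0.39, adjusted p = 0.0568). Every probe set by itself gave 13578 calls in severe, 13531 in moderate, 9668 in mild and 828 in no swelling against naive, 13372 in severe and 8927 in mild against no swelling, 1 in severe against moderate, 13723 for the slope and 15079 for the F test, over more features, against 7906, 7824, 5743, 469, 7874, 5516, 0, 8061 and 8688 over genes. Of the counts in no swelling against naive, quantile normalization gave 309, no intensity trend 290, array quality weights 1169 and scaling on hybridization controls 87, with 1 member called higher and 1 lower. Array weights, whose estimate did not fully converge, gave 9287 in mild against naive with 1 member lower, and 4572 in moderate against mild (964 in the main fit) with 2 members higher. In moderate against mild, scaling on hybridization controls gave 254, only the groups compared 12, and 1 member was called higher with a pseudocount of 64, a filter at the 60th percentile or quantile normalization. That scaling called 2 genes in severe against moderate. The cause of these shifts was not tested. With each array left out in turn, counts were 113 to 701 in no swelling against naive with 0 to 1 member lower, 197 to 2033 in moderate against mild with 0 to 1 member higher, 0 to 2 in severe against moderate, and 0 to 1 member lower in mild against naive.

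Arrays of the same replicate number were not more alike than others. Over 30 same-numbered pairs the correlation of deviations from group means ran from -0.506 to 0.334 (median -0.043), with 5 pairs over 0.1. Over 60 differently numbered pairs it ran from -0.271 to 0.394 (median 0.024), with 21 over 0.1. With the replicate number as a block, 296 genes were called in no swelling against naive and 7682 in severe against naive, with the same member counts of 2 and 9. Signals near background limit Fosb, Fosl1 and the second probe sets of Fosl1 and Jund.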
